A study of Mus musculus with 8 samples.

Results

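The genes described here encode the cell-surface enzymes that act on ATP, NAD and adenosine, with the partners that sense or handle their products. There are 7 of them: Entpd1, Nt5e, Cd38, Ada, Dpp4, Art2b and P2rx7. They were picked by gene symbol from the 24976 genes of a bulk RNA-seq count table, with earlier results of these data known. All 7 passed the low-count filter and are among the 13073 genes tested. The RNA came from CD8 T cells sorted out of B16-OVA tumours, grown from a mouse melanoma line that carries the model antigen ovalbumin. Hosts were Rag2-/- mice, which lack lymphocytes, and they received tumour cells 10 days before the T cells were transferred. The study compared tumour-infiltrating CD8 T cells with and without Nr4a1 and Nr4a2, nuclear receptors switched on by antigen signals, in a less and a more terminally exhausted population.

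The 8 libraries fall into 4 groups of 2. WT PD1+Tim3- and WT PD1+Tim3+ cells came from WT donors, whose OT-I status the labels do not give. PD1+Tim3- and PD1+Tim3+ cells labelled dKO came from Cd8Cre NR4a1 flox/flox NR4a2 flox/flox OT-I Tg/+ donors, so Cre acts where the Cd8 promoter is on, and OT-I encodes an ovalbumin-specific receptor. The OT-I transgene and the genotype label cannot be told apart in the genotype contrasts. All 4 groups had the same host strain, Rag2-/-, and the same tumour line, B16-OVA, and were CD3e+CD8+ cells taken on day 10 after transfer. Per the labels, the cells of each implanted mouse made up a sample. Age and sex are not given. With 2 libraries a group, p-values rest on a spread that all groups share.

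ATP that leaves stressed or dying cells is a danger signal. CD39 and CD73, encoded by Entpd1 and Nt5e, cut it stepwise through AMP to adenosine, which quiets T cells through the receptor encoded by Adora2a, and adenosine deaminase, encoded by Ada, turns adenosine into inosine. A parallel branch uses NAD: CD38 breaks it down, and the mouse enzyme ART2.2, encoded by Art2b, uses it to attach ADP-ribose to surface proteins, among them the ATP-gated channel P2X7 encoded by P2rx7. CD26, encoded by Dpp4, is a surface peptidase of T cells, and CD39 is widely used to mark exhausted CD8 T cells in tumours.

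Total counts ran from 1944999, in replicate 2 of PD1+Tim3- labelled dKO, to 13418762, in replicate 2 of WT PD1+Tim3+. Levels are CPM, counts scaled to the TMM-adjusted size of each library. The sort was visible in Havcr2, the gene of Tim3, at 2.28 to 3.62 CPM in PD1+Tim3- and 41.8 to 58.2 CPM in PD1+Tim3+ libraries. Nr4a1 went against the genotype label, at 789 to 979 CPM in WT and 1175 to 1489 CPM in libraries labelled dKO, and Nr4a2 stood at 958 to 1034 and 929 to 984 CPM. Which exons are floxed is not given, and a count per gene can hold reads from exons that Cre leaves in place. Genotype directions are therefore those of the labels. CD8 T cell markers summed to 3015 to 3978 CPM. Of the macrophage markers, Csf1r had at most 5 counts and each C1q gene at most 6 in any library, while Cd68, at 8.32 to 10.2 CPM in the group means, and Cd14, at 4.48 to 9.37, made up most of the sum. Cd14 stood at -0.98 ± 0.32 between the WT populations (log2, adjusted p 0.0584). With 7 of its 9 markers in the table, that list summed to 16.5 to 22.2 CPM (WT) and 8.92 to 21.0 (labelled dKO) in PD1+Tim3- libraries, and to 16 to 16.8 (WT) and 15.5 to 15.9 (labelled dKO) in PD1+Tim3+ libraries. In bulk RNA, fewer cells of a type and less RNA per cell cannot be told apart.

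Entpd1 and Art2b had the largest fold changes between populations in cells labelled dKO, so the sequences upstream of their starts are shown. They are reference sequence of RefSeq, build GRCm38.p6, which held a start for 7 of the 7 genes, 9 starts in all. Windows of 250 bases before the start were searched on both strands, and bases annotated as exons are removed from what is shown. Entpd1 has a start on the forward strand of chromosome 19 with the window chr19:40612234-40612365, and a second, internal one with chr19:40659520-40659769. The window of Art2b is chr7:101581180-101581411, on the reverse strand, and its RefSeq start also lies inside the annotated gene, not at its outer end. Capitals mark the motif matches.
Entpd1, first start: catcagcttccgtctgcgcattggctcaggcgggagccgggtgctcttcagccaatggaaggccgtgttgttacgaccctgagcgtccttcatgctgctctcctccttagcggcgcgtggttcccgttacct
Entpd1, internal start: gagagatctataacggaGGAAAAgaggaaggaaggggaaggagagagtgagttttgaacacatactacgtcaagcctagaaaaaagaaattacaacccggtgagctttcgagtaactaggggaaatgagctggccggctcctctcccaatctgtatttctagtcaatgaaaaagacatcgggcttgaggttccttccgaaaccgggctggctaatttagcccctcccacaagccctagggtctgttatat
Art2b: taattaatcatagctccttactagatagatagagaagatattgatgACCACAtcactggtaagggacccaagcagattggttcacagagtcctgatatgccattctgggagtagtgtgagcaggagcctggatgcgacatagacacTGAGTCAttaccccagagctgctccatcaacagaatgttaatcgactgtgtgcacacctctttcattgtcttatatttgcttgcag

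Matches to 4 motifs of factors active in T cells were counted. The AP-1 motif TGANTCA matched once in Art2b, as TGAGTCA from 104 to 98 bases before this internal start, and once in P2rx7, from 249 to 243 bases before its first start. The RUNX motif TGTGGT matched in Art2b on the opposite strand, read there as ACCACA from 204 to 199 bases before the start. The NFAT core GGAAAA matched at the internal start of Entpd1, from 233 to 228 bases before it. The NR4A element AAAGGTCA matched none of the 9 windows. All 250 bases of the windows of Nt5e and Cd38 are annotated as exons. Those windows and the second window of P2rx7 also lie inside the annotated genes. No match overlapped another. Of 32841 mouse windows of the same length, 6.75% held the AP-1 motif, 14.1% the RUNX motif, 20.4% the NFAT core and 1.34% the NR4A element. These are matches of letters, and binding was not measured.

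**Figure D1:**
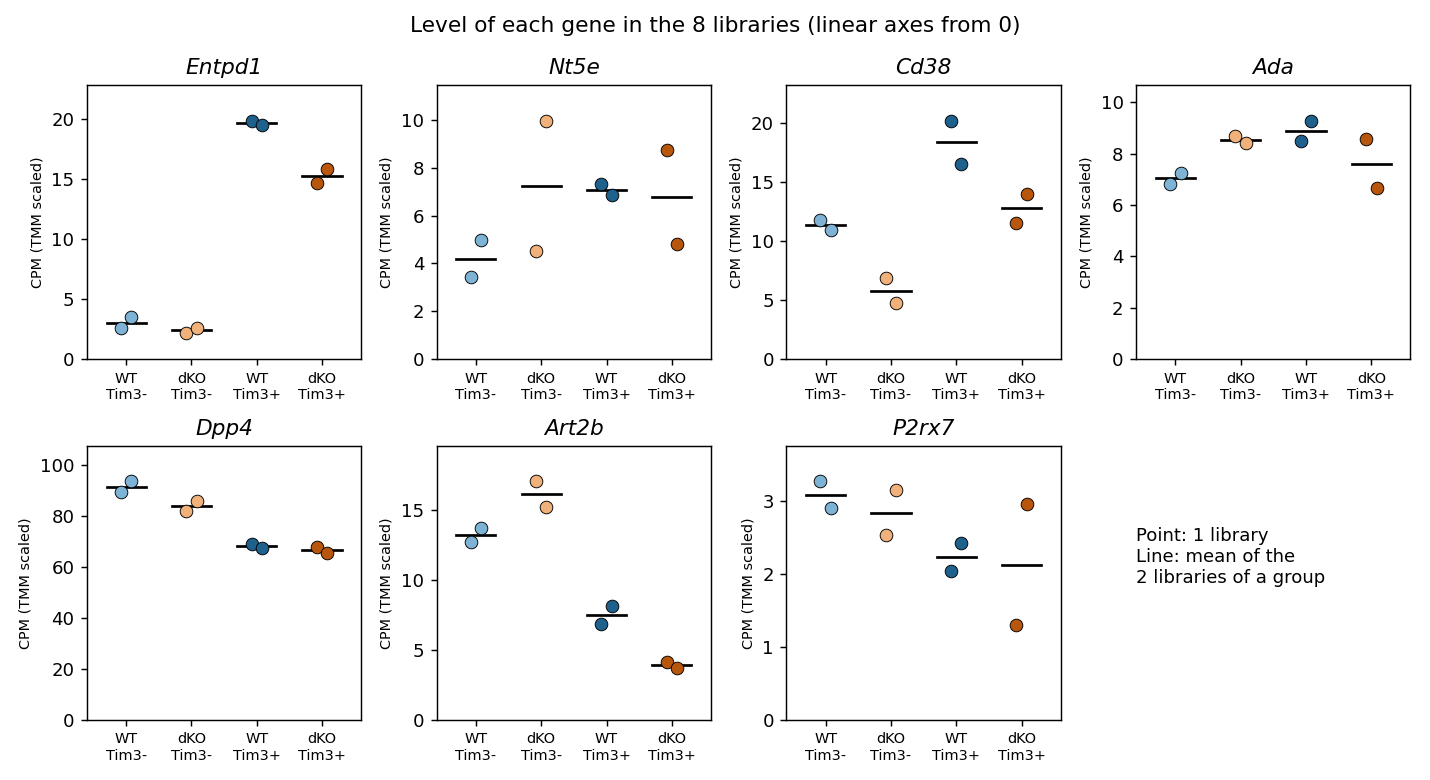
Level of each of the 7 genes in the 8 libraries, in CPM on linear axes from 0, a panel per gene, with points for libraries and lines for group means. Entpd1 stands at 14.7 to 19.9 CPM in the 4 PD1+Tim3+ libraries and 2.17 to 3.52 in the 4 PD1+Tim3- libraries, and Art2b is lowest in PD1+Tim3+ labelled dKO, at 3.69 and 4.10 CPM.

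Of the 7 genes, 4 passed between the populations in WT cells. Entpd1 and Cd38 were higher and Dpp4 and Art2b lower in PD1+Tim3+. The share of all genes tested that passed was 17.0%, of which 8.25% were higher and 8.76% lower. With the dKO label 3 of the 7 passed, Entpd1 and Cd38 higher and Art2b lower, against 9.93% of all genes, 5.21% higher and 4.72% lower. The 2 contrasts share no library, and the fitted change of 6 of the 7 genes had the same sign in both, as had that of 67.5% of all genes tested. The exception was Ada. By group means of CPM 5 of 7 had the same sign, as had 66.4% of all genes, since the means of Nt5e also went opposite ways. The libraries of the 2 populations did not overlap for 7 of 7 genes in WT cells, against 63.0% of all genes, and for 4 of 7 in cells labelled dKO, against 50.9%. A gene was called at an adjusted p under 0.05 in the edgeR quasi-likelihood test over all genes. The ± beside a log2 fold change is its standard error.

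Entpd1 encodes CD39, which removes phosphates from ATP and ADP. It lies at chr19:40612366-40741602 on the forward strand, and the windows before its starts are printed above. It stood at 2.56 and 3.52 CPM in WT PD1+Tim3- and at 19.9 and 19.6 CPM in WT PD1+Tim3+. In cells labelled dKO it stood at 2.17 and 2.62 CPM in PD1+Tim3- and at 14.7 and 15.9 CPM in PD1+Tim3+. All 4 PD1+Tim3+ libraries were above all 4 PD1+Tim3- libraries.

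Entpd1 rose 6.61-fold in WT PD1+Tim3+ cells, a log2 fold change of 2.72 ± 0.23 with a 95% interval of 2.21 to 3.24 and an adjusted p of 3.53e-05. The rise with the dKO label was 6.62-fold, 2.73 ± 0.32, interval 2.03 to 3.42, adjusted p 1.75e-04. Both calls held in all 16 alternatives run for them. The difference between the 2 log2 fold changes was 0.0021 ± 0.39, with an interval of -0.86 to 0.86 and an adjusted p of 0.999. The PD1+Tim3- values rest on 5 to 18 counts a library; the lowest count, 5, has a 95% Poisson interval of 1.62 to 11.7 counts. Intervals on counts cover counting error only.

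Between genotypes, Entpd1 was lower in both PD1+Tim3+ libraries labelled dKO than in either WT library, and did not pass. Its log2 fold change was -0.36 ± 0.16, interval -0.71 to -0.02, adjusted p 0.374. In PD1+Tim3- cells the libraries overlapped, at -0.37 ± 0.36, interval -1.16 to 0.42, adjusted p 0.865.

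Regulatory T cells are rich in CD39 and CD73. Their marker Foxp3 had 3 and 1 counts (WT) and 4 and 2 (labelled dKO) in PD1+Tim3- libraries, and 15 and 32 (WT) and 9 and 3 (labelled dKO) in PD1+Tim3+ libraries. Foxp3 passed as higher in WT PD1+Tim3+ cells (2.75 ± 0.77, adjusted p 0.0108), and stood at 0.45 ± 0.74 between the populations labelled dKO, adjusted p 0.769. Cd4 had 0 counts in all 4 PD1+Tim3+ libraries and at most 1 in the others. The 6 markers of CD4 and regulatory T cells summed to 591 to 597 CPM (WT) and 534 to 555 (labelled dKO) in PD1+Tim3- libraries, and to 662 to 687 (WT) and 599 to 617 (labelled dKO) in PD1+Tim3+ libraries. Of the 5 tested markers 3 passed as higher and 1 as lower in WT PD1+Tim3+ cells, and 2 as higher and 1 as lower with the dKO label. Zbtb7b, a factor of the CD4 lineage, rose in both genotypes, by 1.02 ± 0.18 on the log2 scale in WT, adjusted p 0.00471, and with the dKO label at an adjusted p of 0.00842. It went from 10.05 to 20.5 CPM in WT and from 10.04 to 21.9 CPM with the dKO label. Il2ra was also called higher and Ikzf2 lower in both genotypes, and most of each sum was Ctla4, Il2ra and Ikzf2, which activated CD8 T cells also express. The part of these markers in the Entpd1 result was not tested.

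Nt5e encodes CD73, the enzyme that makes adenosine from AMP, and lies at chr9:88327197-88372092 on the forward strand. It stood at 3.41 and 4.98 CPM in WT PD1+Tim3- and at 7.31 and 6.86 CPM in WT PD1+Tim3+. In cells labelled dKO it stood at 4.52 and 9.97 CPM in PD1+Tim3- and at 8.75 and 4.8 CPM in PD1+Tim3+. The WT populations did not overlap, while those labelled dKO did, with their highest value in replicate 2 of PD1+Tim3-, the smallest library.

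Nt5e did not pass in any contrast. Its log2 fold change between populations was 0.78 ± 0.37 in WT cells, interval -0.03 to 1.59, adjusted p 0.166, and 0.13 ± 0.40 in cells labelled dKO, interval -0.75 to 1.02, adjusted p 0.894. The latter value has no settled direction: the mean CPM went from 7.25 to 6.78, opposite to the fitted sign, and the fitted sign was negative without replicate 1 of PD1+Tim3- or of PD1+Tim3+ labelled dKO. Between genotypes it was 0.59 ± 0.43 in PD1+Tim3- cells, adjusted p 0.768, with 1.29 and 0.15 when replicate 1 or 2 labelled dKO was left out, and -0.05 ± 0.34 in PD1+Tim3+ cells, adjusted p 0.985. Without the low-count filter the WT population contrast passed, at 0.80 with an adjusted p of 0.0348. That fit called 2690 of 23672 genes in this contrast, against 2223 of 13073 with the filter.

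Ada encodes the deaminase that removes adenosine, and lies at chr2:163726584-163750239 on the reverse strand. It stood at 6.82 and 7.26 CPM (WT) and 8.69 and 8.40 CPM (labelled dKO) in PD1+Tim3- libraries, and at 8.50 and 9.28 CPM (WT) and 8.56 and 6.65 CPM (labelled dKO) in PD1+Tim3+ libraries. The PD1+Tim3- genotypes and the WT populations did not overlap, while the populations labelled dKO did. None of its contrasts passed: the log2 fold change between populations was 0.36 ± 0.20 in WT cells, adjusted p 0.254, and -0.18 ± 0.24 in cells labelled dKO, adjusted p 0.716. Between genotypes it was 0.29 ± 0.24 in PD1+Tim3- and -0.24 ± 0.20 in PD1+Tim3+ cells, adjusted p 0.786 and 0.708. The 95% intervals of these 4 values lie within -0.70 and 0.81.

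Dpp4 encodes CD26, a peptidase that trims peptides such as chemokines, and lies at chr2:62330073-62412231 on the reverse strand. It had the highest level of the 7 genes, at 89.6 and 93.7 CPM in WT PD1+Tim3- and 69.2 and 67.3 CPM in WT PD1+Tim3+. The libraries labelled dKO stood at 82.0 and 86.1 CPM in PD1+Tim3- and at 67.8 and 65.4 CPM in PD1+Tim3+. All 4 PD1+Tim3+ libraries were below all 4 PD1+Tim3- libraries. Its exons overlap the antisense gene Gm13561, and the strand setting of the counting is not known.

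Dpp4 fell by 0.42 ± 0.10 on the log2 scale in WT PD1+Tim3+ cells, 1.34-fold, adjusted p 0.0121. This call was lost with DESeq2, at an adjusted p of 0.100, and without any 1 of the 4 WT libraries, at 0.0562 to 0.112. In cells labelled dKO the log2 fold change was -0.33 ± 0.10, interval -0.56 to -0.10, adjusted p 0.0695. The difference between the 2 population contrasts was 0.09 ± 0.14, adjusted p 0.867. Between genotypes Dpp4 stood at -0.13 ± 0.10, interval -0.35 to 0.09, in PD1+Tim3- cells, where the libraries did not overlap, and at -0.04 ± 0.10, interval -0.25 to 0.18, in PD1+Tim3+ cells. The adjusted p-values were 0.782 and 0.952.

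Cd38 encodes the main surface enzyme that consumes NAD, and lies at chr5:43868553-43912375 on the forward strand. It stood at 11.8 and 11 CPM in WT PD1+Tim3- and at 20.2 and 16.6 CPM in WT PD1+Tim3+. With the dKO label it stood at 6.88 and 4.72 CPM in PD1+Tim3- and at 11.5 and 14 CPM in PD1+Tim3+. Within each genotype the PD1+Tim3+ libraries were higher, and within each population the libraries labelled dKO were lower, with no overlap in any of the 4 pairs of groups.

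Cd38 rose 1.58-fold in WT PD1+Tim3+ cells, 0.66 ± 0.18 on the log2 scale, adjusted p 0.0295, and 2.04-fold in those labelled dKO, 1.03 ± 0.26, adjusted p 0.0278. The WT call was lost with DESeq2, at an adjusted p of 0.158, and without any 1 of the 4 WT libraries, at 0.0681 to 0.165. The call in cells labelled dKO was lost with limma-voom, at 0.0550, in a fit of the 4 libraries alone, at 0.0568, and without replicate 1 or 2 of PD1+Tim3- or replicate 2 of PD1+Tim3+ labelled dKO, at 0.114, 0.126 and 0.0834. The genotype differences did not pass. They were -0.87 ± 0.26, interval -1.44 to -0.30, adjusted p 0.424, in PD1+Tim3- cells, and -0.50 ± 0.18, interval -0.90 to -0.10, adjusted p 0.288, in PD1+Tim3+ cells.

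Art2b encodes ART2.2, which modifies surface proteins with ADP-ribose, and lies at chr7:101576970-101585600 on the reverse strand. It stood at 12.7 and 13.7 CPM in WT PD1+Tim3- and at 6.80 and 8.14 CPM in WT PD1+Tim3+. In cells labelled dKO it stood at 17.0 and 15.2 CPM in PD1+Tim3- and at 4.10 and 3.69 CPM in PD1+Tim3+. The order of the genotypes was thus opposite in the 2 populations, with no overlap in either.

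Art2b fell by 0.78 ± 0.18 on the log2 scale in WT PD1+Tim3+ cells, 1.72-fold, adjusted p 0.0125, and by 2.07 ± 0.24 in those labelled dKO, 4.20-fold, adjusted p 4.24e-04. The WT call was lost with DESeq2, at an adjusted p of 0.0760, and without any 1 of the 4 WT libraries, at 0.0577 to 0.0897. The difference between the 2 population contrasts was -1.29 ± 0.30, interval -1.95 to -0.63, unadjusted p 0.00105 and adjusted p 0.202. Without the low-count filter that difference passed, at -1.31 with an adjusted p of 0.0140. In that fit 331 of 23672 genes passed for the difference, against 0 of 13073 with the filter.

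Between genotypes Art2b stood at 0.32 ± 0.19 in PD1+Tim3- cells, interval -0.08 to 0.73, adjusted p 0.695. In PD1+Tim3+ cells it stood at -0.97 ± 0.23, interval -1.48 to -0.45, adjusted p 0.117. Without the low-count filter it passed, at -0.99 with an adjusted p of 0.0136. The unfiltered fit called 486 of 23672 genes in this contrast, against 82 of 13073 with the filter. Art2b has a near-identical relative, Art2a-ps, which had at most 9 counts in any library and 0 in both PD1+Tim3+ libraries labelled dKO. Art2b had 20 and 22 counts in those libraries, and the treatment of reads that match both is not known.

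P2rx7 encodes the channel that opens on high extracellular ATP, or after ART2.2 has modified it, and lies at chr5:122643911-122691432 on the forward strand. It stood at 3.27 and 2.90 CPM (WT) and 2.53 and 3.15 (labelled dKO) in PD1+Tim3- libraries, and at 2.04 and 2.43 (WT) and 1.30 and 2.96 (labelled dKO) in PD1+Tim3+ libraries. The WT populations did not overlap, while the genotypes overlapped in both populations. With 6 to 34 counts a library, the intervals were wide. The log2 fold change between populations was -0.44 ± 0.37 in WT cells, interval -1.26 to 0.38, adjusted p 0.450, and -0.34 ± 0.47 in cells labelled dKO, interval -1.38 to 0.70, adjusted p 0.723. Between genotypes it was -0.20 ± 0.44, interval -1.16 to 0.77, and -0.10 ± 0.41, interval -1.01 to 0.80, in PD1+Tim3- and PD1+Tim3+ cells. The adjusted p-values were 0.927 and 0.970.

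**Figure D2:**
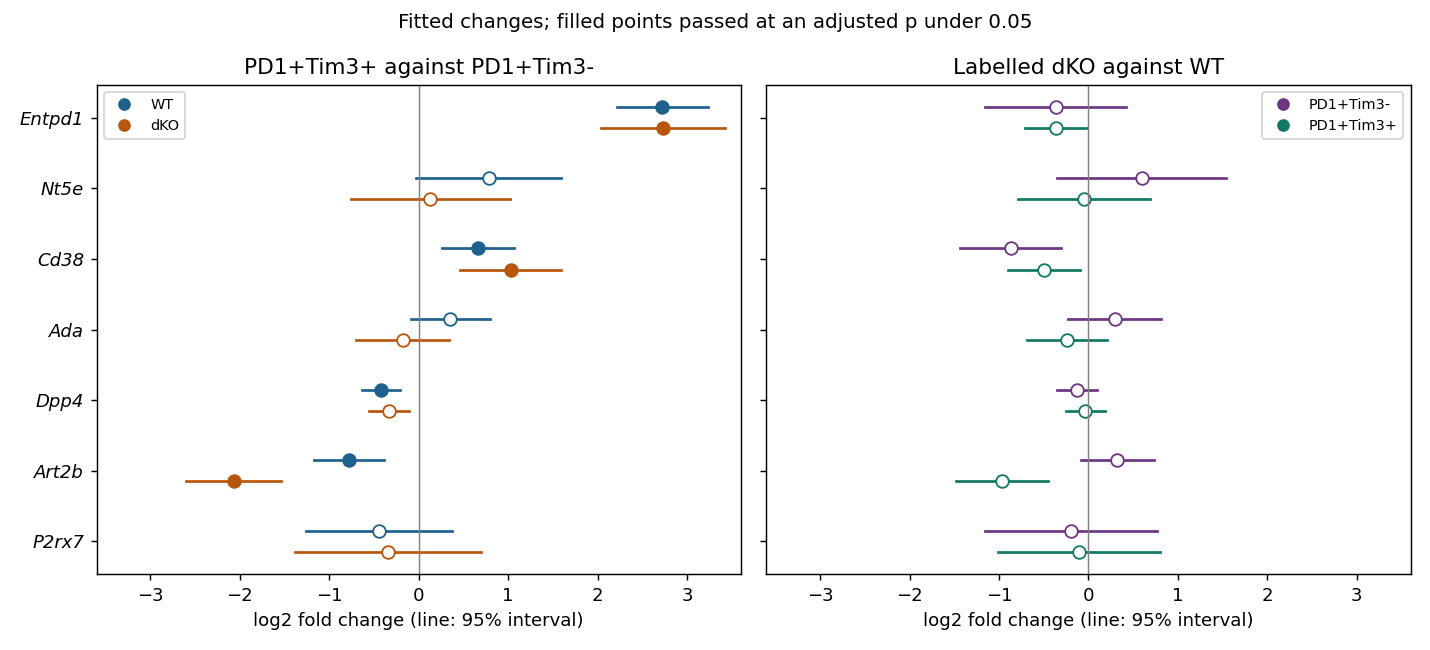
Fitted log2 fold changes of the 7 genes with 95% intervals, for the population contrasts in each genotype and the genotype contrasts in each population; filled points passed at an adjusted p under 0.05. Entpd1 lies at 2.72 and 2.73 in the population contrasts and Art2b at -0.78 and -2.07, while no genotype contrast is filled.

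Between genotypes 0 of the 7 genes passed in PD1+Tim3- cells by edgeR, against 0.0459% of all genes tested, with 1 gene, Cd38, at an unadjusted p under 0.05, as had 8.27% of all genes. In PD1+Tim3+ cells 0 of 7 passed, against 0.627% of all genes, with Entpd1, Cd38 and Art2b at an unadjusted p under 0.05, as had 12% of all genes. For the difference between the population contrasts the edgeR count was 0 of 7, against 0.00% of all genes, with Art2b at an unadjusted p under 0.05, as had 10.1% of all genes. limma-voom called 0 of the 7 in these 3 contrasts. DESeq2 called 0 of 7 in PD1+Tim3- and 0 of the 6 that it gave an adjusted p in PD1+Tim3+ cells. For the difference it gave 1 of the 7 an adjusted p, that of Dpp4, so it does not bear on the others. Genotype groups did not overlap for 4 of 7 genes in PD1+Tim3- cells, against 41.3% of all genes, and for 3 of 7 in PD1+Tim3+ cells, against 41.4%. The median log2 fold change of the 7 genes was -0.13 and -0.24 in the 2 genotype contrasts, beside -0.01 and 0.01 over all genes. The population contrasts had medians of 0.36 in WT cells and -0.18 in cells labelled dKO, beside 0.01 over all genes in each. Both are the values of Ada alone, which did not pass, as is the -0.24 between PD1+Tim3+ genotypes. With genes moving both ways, these medians do not describe a shared shift of the 7 genes.

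**Figure D3:**
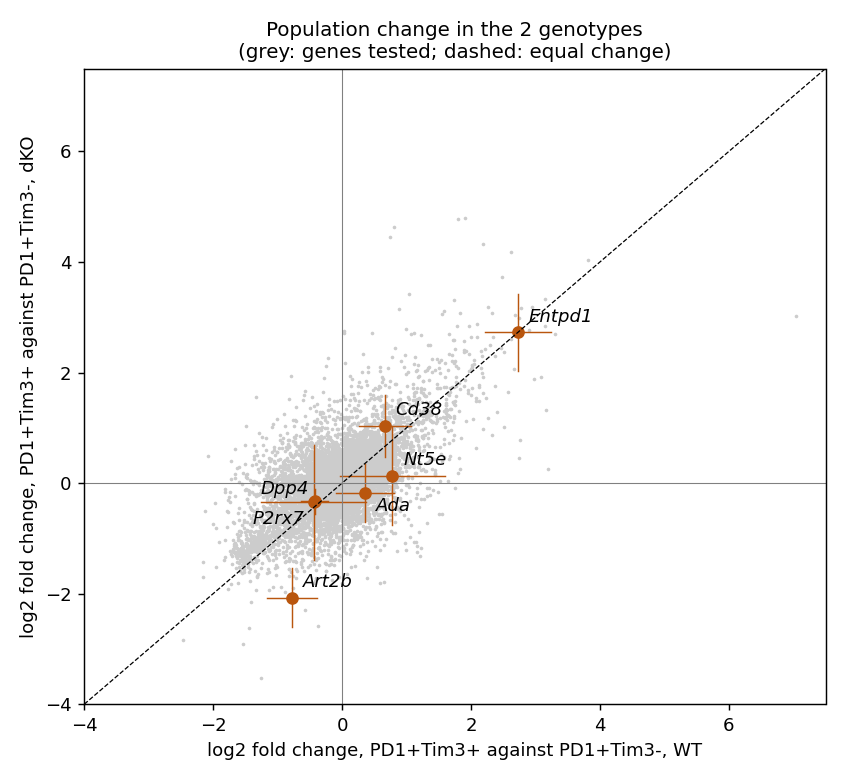
Log2 fold change of PD1+Tim3+ against PD1+Tim3- cells in WT (horizontal) and in cells labelled dKO (vertical), a grey point for each of the 13073 genes tested and named points for the 7 genes; the dashed line marks equal change. Entpd1 lies near the line at 2.72 and 2.73, and Art2b below it at -0.78 and -2.07.

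Levels of markers of other cells differed between the same groups. The 6 NK cell markers summed to 87.0 to 87.9 CPM (WT) and 52.0 to 52.1 (labelled dKO) in PD1+Tim3- libraries, and to 128 to 136 (WT) and 74.6 to 79.5 (labelled dKO) in PD1+Tim3+ libraries. Like Cd38, the sum was highest in WT PD1+Tim3+ and lowest in PD1+Tim3- labelled dKO. Eomes and Klre1, which CD8 T cells also express, made up most of these sums, and Ncr1 had 0 counts in 7 of 8 libraries. Fcer1g went from 2.95 to 10.2 CPM in WT and from 0.543 to 4.91 CPM with the dKO label. Klrb1c went from 6.61 to 13.2 CPM and from 6.58 to 7.97 CPM. Of the 5 tested markers 3 passed as higher in WT PD1+Tim3+ cells and 2 with the dKO label, against 8.25% and 5.21% of all genes. Between genotypes 1 of the 5 passed, as lower in PD1+Tim3+ cells labelled dKO. The 6 dendritic cell markers summed to 25.5 to 29.4 CPM in WT PD1+Tim3- and 34.1 to 34.2 in PD1+Tim3- labelled dKO. In PD1+Tim3+ cells they summed to 51.7 to 53.6 CPM in WT and 49.7 to 56.6 in libraries labelled dKO, and Itgax, at 22.2 to 49.3 CPM over all libraries, made up most of each sum. Clec9a had 0 counts in 6 of 8 libraries. Of the 3 tested markers 1 passed as higher in PD1+Tim3+ cells of each genotype, against 8.25% and 5.21% of all genes. None passed between genotypes. Batf3 went from 0.213 to 1.56 CPM in WT and from 0.624 to 1.21 CPM with the dKO label. Flt3 went from 1.30 to 1.01 CPM and from 0.896 to 0.835 CPM. Zbtb46 went from 0.841 to 0.925 CPM in WT and from 1.77 to 1.95 CPM with the dKO label. The 7 fibroblast and endothelium markers summed to 37.8 to 43.7 CPM (WT) and 23.6 to 37.3 (labelled dKO) in PD1+Tim3- libraries, and to 26.3 to 28.4 (WT) and 24.8 to 30.9 (labelled dKO) in PD1+Tim3+ libraries. Most of each sum was Pecam1, which fell in WT PD1+Tim3+ cells (-0.57 ± 0.16, adjusted p 0.0361), the direction of Dpp4 and Art2b. Col1a2 and Pdgfrb each had 0 counts in 7 of 8 libraries. Of the other endothelial markers, Cdh5 stood at 0 to 0.107 CPM and Kdr at 1.95 to 3.93 CPM in the group means. B and plasma cell markers, 5 of 6 in the table, summed to 4.69 to 5.39 CPM (WT) and 3.15 to 6.70 (labelled dKO) in PD1+Tim3- libraries, and to 4.50 to 4.93 (WT) and 6.70 to 8.13 (labelled dKO) in PD1+Tim3+ libraries, with Ms4a1 at 0 in all 8. The 6 B16 melanoma markers summed to 18 to 22.2 CPM over all libraries, with overlap between the populations of each genotype. Most of each sum was Tyr, at 15.4 to 16.6 CPM in the group means. Pmel went from 2.82 to 1.48 CPM in WT and from 3.20 to 1.11 CPM with the dKO label. Mitf went from 0.983 to 1.49 CPM and from 1.76 to 0.927 CPM. None of the 3 tested melanoma markers passed in any contrast. The part of these markers in the Cd38, Art2b and Dpp4 results was not tested.

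Per kilobase of the longest coding transcript, Dpp4 stood far above the other genes in every group, at 17.4 ± 0.554 CPM per kilobase in WT PD1+Tim3- cells (SD, n = 2). Art2b followed at 4.67, Ada at 4.17, Cd38 at 3.48, Nt5e at 1.05, Entpd1 at 0.721 and P2rx7 at 0.625. In this group only Entpd1 and P2rx7 had libraries that overlapped as neighbours in the order. In WT PD1+Tim3+ cells the order was Dpp4 at 13, Cd38 at 5.63 ± 0.793, Ada at 5.27 ± 0.327, Entpd1 at 4.67, Art2b at 2.65, Nt5e at 1.77 and P2rx7 at 0.453, and Cd38 and Ada overlapped. Entpd1 thus stood next to last in WT PD1+Tim3- cells and in the middle of the list in WT PD1+Tim3+ cells.

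In PD1+Tim3- cells labelled dKO the levels per kilobase were 16 for Dpp4, 5.72 for Art2b, 5.06 for Ada, 1.81 for Nt5e, 1.77 for Cd38, 0.576 for P2rx7 and 0.568 for Entpd1. Nt5e overlapped with Cd38, and P2rx7 with Entpd1. In PD1+Tim3+ cells labelled dKO they were 12.6 for Dpp4, 4.51 for Ada, 3.91 for Cd38, 3.62 for Entpd1, 1.70 for Nt5e, 1.38 for Art2b and 0.431 for P2rx7. There Ada overlapped with Cd38, Cd38 with Entpd1, and Nt5e with Art2b. Over all genes tested, the mean CPM of Dpp4 lay at percentile 82.8 and that of P2rx7 at 11.5, with the other 5 between 26.8 and 39.4.

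For each gene, the genes with the most similar log2 CPM over the 8 libraries were found by Pearson correlation; these points share library, depth and the split by population. For Entpd1 they were Fasl, which encodes a death ligand of cytotoxic cells, at 0.996, and the chemokine gene Ccl3 at 0.995. Fasl stood at 24.7 CPM (WT) and 18.2 (labelled dKO) in PD1+Tim3- cells and at 83.6 (WT) and 68.6 (labelled dKO) in PD1+Tim3+ cells. For Art2b they were the membrane protein gene Itm2a at 0.980 and Usp11, which encodes a deubiquitinase, at 0.973. Itm2a stood at 207, 216, 134 and 78.2 CPM in the same order of groups, lowest in PD1+Tim3+ labelled dKO as Art2b was.

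For Cd38 the most similar were Elk3, a transcription factor gene, at 0.989, and Gimap1os at 0.987. For Dpp4 they were Ktn1 at 0.983 and the phospholipase gene Plcb2 at 0.981. For Nt5e they were Endod1 at 0.984 and Akr7a5 at 0.976, for Ada the genes Sigirr and Sla at 0.960 and 0.958, and for P2rx7 the genes Hook1 and 4930512M02Rik at 0.963 and 0.957.

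**Figure D4:**
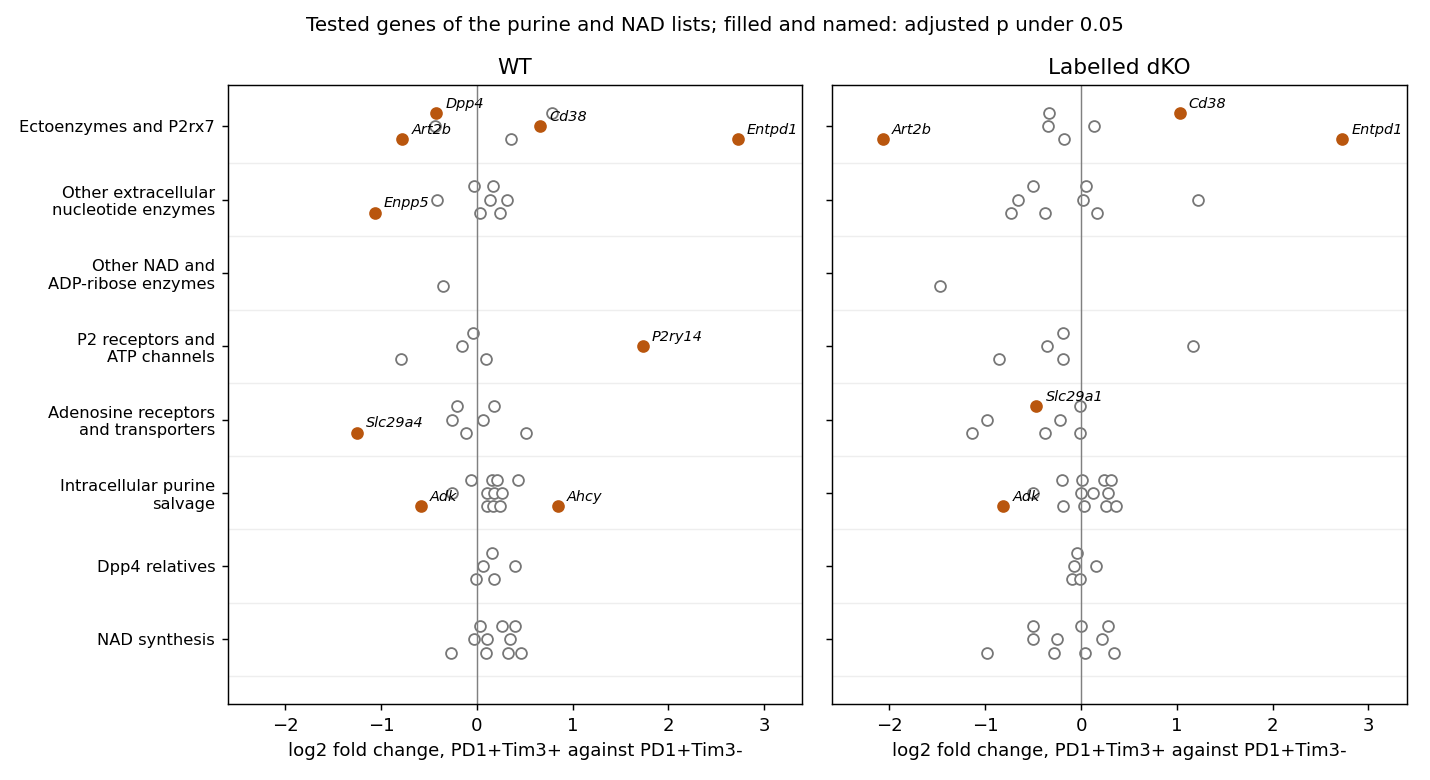
Log2 fold change of PD1+Tim3+ against PD1+Tim3- cells for the tested genes of 7 related lists, in WT and in cells labelled dKO, a point per gene; filled, named points passed at an adjusted p under 0.05. In WT cells Ahcy and P2ry14 are filled on the higher side and Enpp5, Slc29a4 and Adk on the lower, and in cells labelled dKO Adk and Slc29a1 on the lower.

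Of 83 other genes of purine and NAD metabolism in 7 lists, 49 were tested. Between populations 2 passed as higher and 3 as lower in WT cells, and 0 higher and 2 lower in cells labelled dKO, with medians of 0.10 and -0.08. These are 10.2% and 4.08% of the 49, below the 17.0% and 9.93% of all genes. DESeq2 called 4 and 2 of the 49 in these contrasts and limma-voom 5 and 2. In the genotype contrasts edgeR called 0 of the 49 in either population, with 6 and 5 at an unadjusted p under 0.05, and 0 for the difference between population contrasts, with 8. The unadjusted counts are 12.2%, 10.2% and 16.3% of the 49, beside the 8.27%, 12% and 10.1% of all genes. limma-voom called 0 in these 3 as well, and so did DESeq2, which gave an adjusted p to 49, 45 and 23 of the 49.

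Among the 8 tested other enzymes of extracellular nucleotides, Enpp5, of the family that cleaves nucleotide phosphodiester bonds, fell from 5.15 CPM in WT PD1+Tim3- to 2.55 CPM in WT PD1+Tim3+ cells (-1.06 ± 0.33, adjusted p 0.0488). That call held in 7 of 16 alternatives. With the dKO label Enpp5 went from 4.20 to 3.25 CPM and did not pass. Entpd5, a relative of Entpd1 that acts inside the secretory pathway, had the highest level of this list at 30.7 to 37.7 CPM in the group means, and its population log2 fold changes were 0.03 ± 0.12 and 0.03 ± 0.13. Of the other NAD glycohydrolases and ADP-ribosyltransferases, Art4 alone was tested of 7 genes, and it did not pass in any contrast. Art4 stood at 2.72 (WT) and 2.92 (labelled dKO) CPM in PD1+Tim3- cells and at 2.33 and 0.926 CPM in PD1+Tim3+ cells.

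Of 5 tested P2 receptors and ATP release channels, P2ry14, the receptor of UDP-glucose, rose from 1.43 to 4.77 CPM in WT PD1+Tim3+ cells (1.73 ± 0.48, adjusted p 0.0221). The call was lost when replicate 1 of WT PD1+Tim3- or either WT PD1+Tim3+ library was left out, at adjusted p-values of 0.232, 0.109 and 0.0615. P2ry14 lies opposite to and within Med12l. With the dKO label it went from 2.06 to 5.66 CPM and did not pass. P2ry10, a receptor related in sequence to nucleotide receptors, had the highest level of this list, at 231 to 287 CPM in the group means, and did not pass. Of 7 adenosine receptors and transporters, Slc29a4, which encodes a transporter of monoamines and adenosine, fell in WT PD1+Tim3+ cells (-1.26 ± 0.28, adjusted p 0.0124). Without replicate 1 of WT PD1+Tim3- its value was -0.64, adjusted p 0.121, and the call was also lost without replicate 1 or 2 of WT PD1+Tim3+, at 0.111 and 0.0807, and with robust empirical Bayes, at 0.122. Slc29a1, an adenosine carrier, fell from 51.1 to 37.0 CPM in PD1+Tim3+ cells labelled dKO (-0.46 ± 0.13, adjusted p 0.0486), a call that held in 4 of 16 alternatives. The adenosine receptor gene Adora2a, named after its values were seen, stood at 63.0 ± 0.570 (WT) and 62.7 ± 2.63 (labelled dKO) CPM in PD1+Tim3- cells and at 71.9 ± 8.46 and 54.3 ± 3.18 CPM in PD1+Tim3+ cells (SD, n = 2), and passed in no contrast.

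Inside the cell, Adk, the kinase that returns adenosine to AMP, fell in PD1+Tim3+ cells of both genotypes, from 50.7 to 33.7 CPM in WT (-0.58 ± 0.11, adjusted p 0.00569) and from 58.5 to 33.4 CPM in cells labelled dKO (-0.81 ± 0.12, adjusted p 0.00272). These calls were lost without replicate 1 or 2 of WT PD1+Tim3+, at 0.0596 and 0.0551, and without replicate 1 of PD1+Tim3- labelled dKO, at 0.0618. Ahcy, the enzyme that frees adenosine from S-adenosylhomocysteine, rose from 24.8 to 44.7 CPM in WT PD1+Tim3+ cells (0.85 ± 0.11, adjusted p 0.00104) and stood at 38.4 and 45.3 CPM in the populations labelled dKO. The other 11 of 13 tested purine salvage genes did not pass, among them Samhd1, a nucleotide hydrolase and the gene with the highest level of this list, at 365 to 444 CPM in the group means. None of the 5 tested dipeptidyl peptidase relatives of Dpp4 passed, with Dpp8 the highest at 44.4 to 49.7 CPM, and none of the 10 tested NAD synthesis genes, with Nampt, of the salvage step that precedes NAD, the highest at 49.0 to 56.2 CPM. By edgeR these lists had 1 and 1 gene at an unadjusted p under 0.05 in WT cells and 0 and 1 in cells labelled dKO. These are 20% and 10% of the tested genes of the lists in WT cells, beside 31.6% of all genes. With the dKO label they are 0% and 10%, beside 23.7%.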

How the data were processed

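Bulk RNA-seq of sorted CD8 T cells was deposited as 1 table of whole-number counts per gene, which the authors made for all 8 libraries. Per the submitters' processing notes, build mm10, cutadapt 1.18 and Bowtie2 2.2.5 were used. The counting tool, the annotation, the strand setting and how shared reads were treated: not given in the sources used here. A nameless last line equals each column's total and was left out.

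Genes were tested with the edgeR 4.0.16 quasi-likelihood test in R 4.3.3 after TMM scaling and the default low-count filter. One model of 4 group means held 8 libraries, with 4 residual degrees of freedom, and p-values were adjusted by Benjamini-Hochberg over 13073 genes. Standard errors come from the fitted weights and the posterior dispersion. Alternatives used DESeq2 1.42.0, limma 3.58.1 (voom), other scaling, filter and dispersion settings, fits of the 4 libraries compared, replicate blocks and each library left out. The code was tested on simulated data. The 2 libraries of a group differed beyond sampling noise. The chi-square per gene was 17.5 in WT PD1+Tim3-, 3.47 in WT PD1+Tim3+, 3.16 in PD1+Tim3- labelled dKO and 11.0 in PD1+Tim3+ labelled dKO. Positions are of GRCm38, from GENCODE M21, and starts from RefSeq. The 7 genes are always named; of the related lists, those that passed and the highest-level gene are. The genes and lists were chosen with earlier results of these data known.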

Additional observations from a re-analysis of the deposited data

How the results depend on the processing

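Of the 7 genes, edgeR called 4 between WT populations, against 2223 of all 13073 genes. DESeq2 called 1, Entpd1, against 1314 of 13073 genes. The count was also 4 with limma-voom, robust empirical Bayes, other size factors and a fit of the 4 libraries alone, against 1919 to 2624 genes. With a library left out the WT log2 fold change ran from 2.48 to 2.94 for Entpd1 and from 0.53 to 0.82 for Cd38. It ran from -0.45 to -0.39 for Dpp4 and from -0.95 to -0.69 for Art2b. The WT calls of Cd38, Dpp4 and Art2b rested on every WT library, as given above. Without the low-count filter Art2b passed between genotypes in PD1+Tim3+ cells and in the difference between population contrasts, 1 gene each against 0. That fit called 486 and 331 of 23672 genes in these 2 contrasts, against 82 and 0 of 13073 with the filter. Deviations between replicates 1 and 2 had correlations of -0.18 to 0.02 between groups. The labels state no pairing, and low correlations cannot settle it, since noise in single libraries lowers them. A replicate block called 4 and 3 of the 7 genes between populations in WT and labelled dKO, against 1672 and 716 of 13073 genes. It called 0 of the 7 in the other contrasts, against at most 40 of all genes. A block by mouse called 3 and 2 of the 7, against 1528 and 1006 genes, and 0 for the difference. With that block Cd38 had adjusted p-values of 0.0504 and 0.0522. No value that passed changed sign. Among values that did not pass, the Entpd1 difference between population contrasts was -0.054 with limma-voom, -0.015 without the filter, -0.0077 with a replicate block, -0.018 with a block by mouse and -0.21 to 0.24 with a library left out. That of P2rx7 was -0.011 with limma-voom, -0.082 with a block by mouse and -0.61 to 0.56 with a library left out. With a library left out Nt5e ran from -0.55 to 0.32 between PD1+Tim3+ genotypes and from -0.58 to 0.58 between populations labelled dKO, and P2rx7 from -0.29 to 0.028, from -0.81 to 0.36 and from -1.04 to 0.12 between PD1+Tim3- genotypes, PD1+Tim3+ genotypes and populations labelled dKO. The cause was not tested. Counts of 5 to 34 in Entpd1, in PD1+Tim3- cells, and P2rx7 limit what could be detected.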

Other observations

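Slc29a4, of the adenosine receptor and transporter list, was by far the most abundant of its list. It stood at 1869 and 915 CPM in replicates 1 and 2 of WT PD1+Tim3-, at 1074 and 1352 CPM in PD1+Tim3- labelled dKO, at 547 and 620 CPM in WT PD1+Tim3+, and at 493 and 732 CPM in PD1+Tim3+ labelled dKO. All 4 PD1+Tim3- libraries were above all 4 PD1+Tim3+ libraries, and the 2 WT PD1+Tim3- replicates lay further apart than the libraries of any other group.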
